A study of Mus musculus with 8 samples.

Results

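The response of mouse melanoma cells to PLX4720, an inhibitor of mutant BRAF, was described in cells that shared their culture with fibroblasts. Cells of the line 5555-mEGFP, which carry a green fluorescent label, were grown with MAF2-mCherry, a line of melanoma-associated fibroblasts with a red label, and were treated for 24 h with PLX4720 at 1 mM or with DMSO at 0.1%. The dose is the one in the sample labels, and the unit could not be checked against another source. The mEGFP-positive fraction was then isolated by FACS, and its total RNA was hybridised to Illumina mouse BeadChip arrays, with 2 arrays for PLX4720 and 2 for DMSO. Another 4 arrays hold the same cells in mono-culture, 2 with DMSO and 2 with PLX4720, and the labels do not say whether those cells also passed through the sorter. All cells derive from 1 melanoma line and 1 fibroblast line, and nothing states that the 2 arrays of a group come from separate cultures, so the p-values take account of no more than the variation among these arrays, which may be technical.

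The comparison covers every gene that was detected, that is, with a detection p under 0.01 for its probe, on both arrays of either co-culture group. This holds for 6947 of the 7357 genes tested in the series, and 6422 of them were detected on all 4 co-culture arrays. Levels are given as normalised log2 intensities after background correction, where 1 unit is a change of a factor of 2, and a change is the PLX4720 mean minus the DMSO mean with its standard error (SE) from the limma fit over all 8 arrays. A gene passed at an adjusted p under 0.05. Where a gene was not detected on either array of one group, its fold is given as a bound against the lowest signal detected on those arrays. Per array, 37.96% to 39% of probes were detected, and replicates correlated across genes with r between 0.990 and 0.995.

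BRAF is a kinase of the MAPK cascade, and its mutant form in melanoma signals to MEK and ERK without a growth factor. ERK raises the transcription of cyclin D1, of ETS factors of the PEA3 group (Etv1, Etv4, Etv5), of the AP-1 subunit Fosl1 and of ligands of the EGF receptor. It also raises its own brakes, the DUSP phosphatases, the Sprouty and Spred proteins and Errfi1, an inhibitor of the EGF receptor. An inhibitor of BRAF is known to lower these genes in mutant cells.

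With fibroblasts present, 1019 of the 6947 genes were higher in PLX4720 and 915 were lower, which is 14.7% and 13.2%. Over all genes tested the shares were 14.3% and 12.7%. The median change over the 6947 genes was 0.004 (log2). Among genes that passed, the median fold was 1.65 for rises and 1.62 for falls, and a fold of 4 or more was reached by 38 genes that rose and 29 that fell. For all 1934 genes that passed, the 2 arrays of one group lay entirely above those of the other, as they did for 65.6% of all genes tested, so that this order alone marks no gene. Both counts depended on the test and on the arrays. By an ordinary test of each gene over the 4 co-culture arrays, 3 of all 7357 genes passed as higher and 4 as lower. Both limma counts fell without any one co-culture array, and more without a DMSO array than without a PLX4720 array. Without replicate 1 of co-culture DMSO 552 genes were higher and 440 lower, and without replicate 2 of that group 543 were higher and 476 lower. With arrays scaled to a common median in place of quantile normalisation, 1098 genes were higher and 567 lower, so that rises made up 65.9% of calls in place of 53%.

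**Figure D1:**
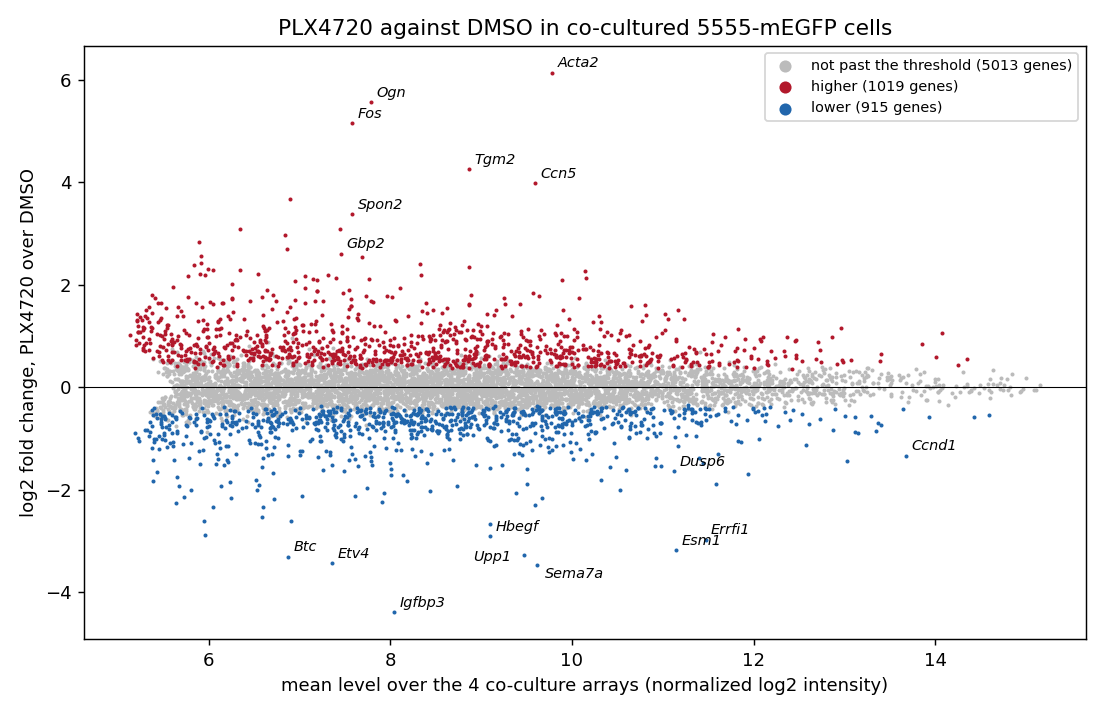
Change of each of the 6947 detected genes (log2 fold change, PLX4720 over DMSO in co-culture) against its mean level over the 4 co-culture arrays (normalised log2 intensity), with genes that passed the test in red (1019 higher) and blue (915 lower). Acta2, Ogn and Fos lie at the top and Igfbp3 at the bottom.

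The rule on detection shaped the extremes. On neither DMSO array but on both PLX4720 arrays 142 genes were detected, and 126 genes showed the reverse. A gene that entered only through the group where it was high had to differ, and 122 of the rises and 86 of the falls that passed were of this kind. They are described by bounds. A further 129 genes were detected on both PLX4720 arrays and 1 DMSO array, and 128 on both DMSO arrays and 1 PLX4720 array. They gave 45 rises and 28 falls, whose folds include a value not above background. Genes detected on all 4 arrays gave 852 rises and 801 falls. The counts and medians of gene lists below include genes of every kind, and their size is a description and supports nothing further. They stand beside shares of 14.7% higher and 13.2% lower over all 6947 genes, and no list was tested against these shares.

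Genes of the ERK feedback loop were lower. Of 12 listed genes 6 were detected, 5 of them fell, none rose, and the median change was -1.65. Errfi1 stood at 12.96 and 12.97 on the DMSO arrays and at 9.97 and 10.00 on the PLX4720 arrays. It was among the brighter genes of these cells in DMSO and fell by 2.98 ± 0.13 on the log2 scale (SE, n = 2 and 2, adjusted p = 1.68e-06), a 7.88-fold drop. Dusp6, the phosphatase that removes phosphate from ERK in the cytoplasm, fell from 11.94 and 11.95 to 10.46 and 10.16, which is 3.10-fold (adjusted p = 0.00202). Dusp4, its nuclear relative, fell 3.92-fold (change -1.97 ± 0.14, adjusted p = 2.66e-05). Spry4, a Sprouty protein, fell 3.18-fold and Spred1 2.01-fold, with groups that did not overlap. Dusp7 was the exception, at 9.79 and 9.47 in DMSO and 9.44 and 9.75 in PLX4720, with an adjusted p of 0.912.

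The transcription factors driven by ERK divided. Of 9 detected genes 5 fell and 1 rose, with a median of -0.90. Etv4 was at 9.13 and 9.02 in DMSO and at 5.88 and 5.41 in PLX4720, where 1 of the 2 arrays detected it. Its fall of 10.8-fold (change -3.43 ± 0.19, adjusted p = 6.05e-06) includes a PLX4720 value not above background. Etv5 and Etv1 were detected on both DMSO arrays and on neither PLX4720 array, with bounds of at least 3.36-fold for Etv5 and at least 2.37-fold for Etv1. Myc was likewise detected in DMSO only, at levels of 6.06 and 5.84 close to the limit of detection, and was at least 1.29-fold lower. Egr1, an early growth response factor, went the other way, from 11.62 and 11.64 to 12.57 and 12.51 (1.87-fold, adjusted p = 0.00123). In mono-culture the change of Egr1 was -0.15 (adjusted p = 0.409), and the difference between the cultures was not called. Ier3, another early gene, was at 12.04 and 11.89 against 11.84 and 11.97. The list's median turned to 0.53 when only genes detected on all 8 arrays were kept, which left out Etv1, Etv4, Etv5, Fosl1 and Myc.

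**Figure D2:**
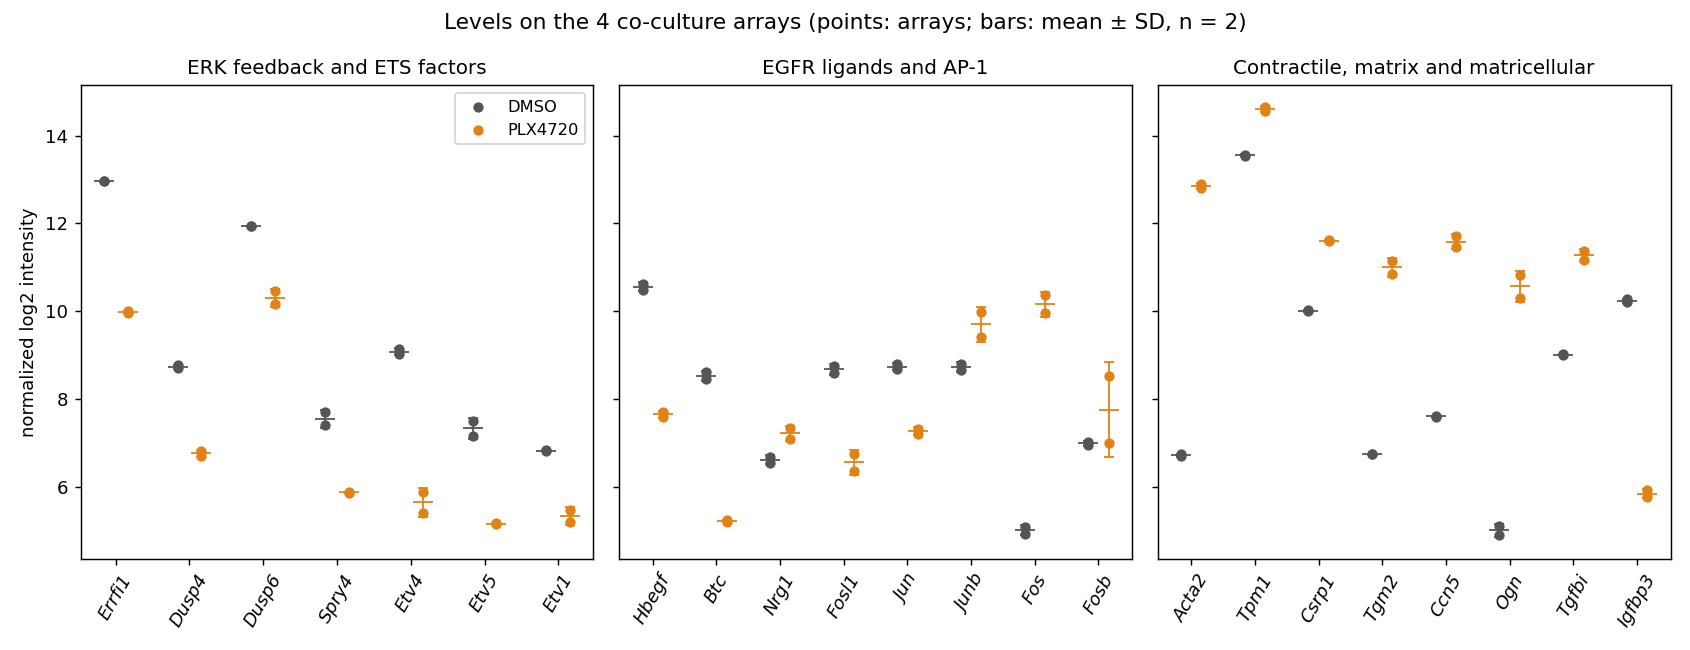
Normalised log2 intensity of 23 genes on the 2 DMSO arrays (grey points) and the 2 PLX4720 arrays (orange points) of the co-culture, with bars for the mean ± SD. The groups were apart for 22 of them, and Fosb, with 1 PLX4720 array at 8.52 and the other at 6.99, was the exception.

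Promoters are shown for 2 genes that moved in opposite directions and carry a searched motif, Errfi1, which fell, and Zfp36, an early gene for an RNA-binding protein that destabilises cytokine messages, which rose from 8.66 and 8.57 to 10.31 and 10.16 (3.08-fold, adjusted p = 8.03e-05). Zfp36 was chosen after its matches had been seen. The sequences are from RefSeq (GRCm38.p6), each with 250 bases before and 50 after a start site. Capitals mark TGACGTCA, the CRE, in Errfi1 at chr4:150854820-150855119 (plus strand). In Zfp36 at chr7:28379179-28379478 (minus strand) they mark CCGGAA, a form of the ETS site, followed by a CArG box. The CArG box is the site of the serum response factor Srf.
Errfi1: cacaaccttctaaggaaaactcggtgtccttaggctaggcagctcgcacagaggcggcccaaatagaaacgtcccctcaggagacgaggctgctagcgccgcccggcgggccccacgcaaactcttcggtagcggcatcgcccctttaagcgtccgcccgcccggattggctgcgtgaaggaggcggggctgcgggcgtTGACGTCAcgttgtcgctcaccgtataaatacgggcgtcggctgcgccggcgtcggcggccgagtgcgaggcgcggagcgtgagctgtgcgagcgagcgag
Zfp36: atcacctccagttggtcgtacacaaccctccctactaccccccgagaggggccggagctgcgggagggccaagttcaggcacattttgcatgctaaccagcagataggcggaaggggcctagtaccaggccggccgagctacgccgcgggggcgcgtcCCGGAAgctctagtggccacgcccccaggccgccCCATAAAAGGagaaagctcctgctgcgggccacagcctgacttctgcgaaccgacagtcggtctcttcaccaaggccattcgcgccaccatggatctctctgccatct
The CRE of Errfi1 spans bases 200 to 207. In Zfp36 CCGGAA spans bases 159 to 164 and the CArG box bases 193 to 202, and these do not overlap. Of Errfi1, Etv5, Dusp6 and Etv1, 7 promoters were searched on both strands. The motifs were the CArG box, CCGGAA as a form of the ETS site and TGANTCA as the AP-1 site. TGACGTCA as the CRE and CACGTG as the E-box were also searched. The CRE of Errfi1 was the single match, and other forms of the ETS site were not searched. Other genes of the feedback, ETS and AP-1 lists that fell, among them Etv4, Fosl1 and Dusp4, were not searched here. Among all 32851 promoters of this length, 1.63% held a CArG box, 14.9% CCGGAA, 7.81% an AP-1 site, 1.79% a CRE and 7.15% an E-box.

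Motifs were also counted per gene over all its promoters. A CArG box stood in 26 of 830 genes that rose with a promoter entry (3.13%), in 6 of 752 that fell (0.798%) and in 1.67% of all 5754 detected genes with an entry. The CCGGAA motif stood in 20.7% of the genes that rose, in 34.4% of those that fell and in 34.9% of all. The E-box stood in 16.6% of the genes that fell against 11.4% of those that rose and 12.6% of all. The AP-1 site stood in 7.59% of the genes that rose, 6.65% of those that fell and 6.08% of all, and the CRE in 2.05%, 4.39% and 3.68%. These are shares of letters in a window and not binding sites, and none of these differences was tested.

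The ligands of the EGF receptor family and the AP-1 subunits moved in both directions. Hbegf, a heparin-binding EGF receptor ligand, fell from 10.63 and 10.48 to 7.70 and 7.59, which is 7.51-fold (change -2.91 ± 0.14, adjusted p = 1.97e-06). Btc, or betacellulin, was at 8.45 and 8.60 in DMSO and below detection on both PLX4720 arrays, and was at least 7.72-fold lower. Nrg1, a ligand of the receptors ErbB3 and ErbB4, rose 1.51-fold (adjusted p = 0.01). That call was lost without replicate 2 of co-culture DMSO (adjusted p = 0.0865) and without replicate 2 of co-culture PLX4720 (0.0529).

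Of 8 detected AP-1 genes 3 rose and 2 fell. Fosl1 fell from 8.58 and 8.76 to 6.75 and 6.36 (4.34-fold, adjusted p = 4.44e-05). Jun fell from 8.67 and 8.80 to 7.33 and 7.21 (2.77-fold, adjusted p = 0.000614). Junb rose from 8.80 and 8.65 to 9.98 and 9.42 (1.96-fold, adjusted p = 0.00379). Fos was the largest mover of the family. It was below detection on both DMSO arrays and stood at 10.36 and 9.95 on the PLX4720 arrays, at least 24.1-fold higher. Fosb was at 7.03 and 6.95 in DMSO and at 8.52 and 6.99 in PLX4720, so that a single array was high and the change did not pass (adjusted p = 0.167). Without replicate 2 of co-culture PLX4720 its change was 1.53 and passed (adjusted p = 0.00247).

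In the cell cycle, 20 of 30 DNA replication genes, 6 of 17 G1 genes and 1 of 20 mitosis genes fell. Cyclin D1 (Ccnd1), which activates the G1 kinases CDK4 and CDK6, was at 14.35 and 14.34 in DMSO and at 13.11 and 12.91 in PLX4720. It was among the brightest genes on these arrays and fell 2.52-fold (adjusted p = 0.000155). Ccne2, a partner of CDK2, fell 2.95-fold and E2f2, an activator of S phase genes, 2.36-fold. Of the G1 list 1 gene, the CDK inhibitor Cdkn1c, rose from below detection. No DNA replication gene rose, and the list had a median of -0.62 and a range from -1.23 to -0.02. Mcm3, a subunit of the replicative helicase, fell from 8.80 and 8.67 to 7.61 and 7.40. Cdc6, which loads that helicase, fell 2.25-fold and Mcm10 2.11-fold. The mitosis gene that passed was the kinase Cdk1, with a 1.51-fold fall (adjusted p = 0.00586), and the median of that list was -0.12.

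Of 24 genes for nucleolar proteins and other MYC targets 17 fell and none rose, with a median of -0.71. Nop56, a core protein of the box C/D particles that modify ribosomal RNA, fell from 10.66 and 10.59 to 9.46 and 9.25 (2.41-fold, adjusted p = 0.000545). Mybbp1a and Gnl3, proteins of the nucleolus, fell 2.22-fold and 2.10-fold. Among 38 genes for cytosolic ribosomal proteins the range was -0.39 to 0.16 and the median -0.06. Only Rpl13a passed, with a fall of 0.39 on the log2 scale (adjusted p = 0.0396), and it did not pass with median scaling (0.205), with the replicate block (0.0557), with the 4 co-culture arrays alone (0.0614) or without any one of the 4 co-culture arrays or either mono-culture DMSO array. Subunits of the mitochondrial respiratory chain spread over -0.60 to 0.75, with 5 of 52 higher, 1 lower and a median of 0.07. Over all 6947 genes 14.7% were higher and 13.2% lower.

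Among metabolic genes, the glucose transporter Slc2a1 and the early glycolytic enzymes Hk2 and Pfkl fell, while sterol and lipid genes rose or were not called. Slc2a1, or GLUT1, fell from 11.27 and 11.22 to 10.39 and 10.49 (1.75-fold, adjusted p = 0.0017), and Hk2, hexokinase 2, fell 2.32-fold (adjusted p = 0.00189), as did the phosphofructokinase Pfkl by 1.87-fold (adjusted p = 0.00375). The used probe of Pfkl changed by -0.90, and another, detected on 2 DMSO arrays and 1 PLX4720 array, by -0.46. Over the whole list of HIF targets and glycolysis 6 of 24 genes fell and 1 rose, beside 13.2% and 14.7% of all 6947 genes. Of 26 genes for sterol and fatty acid synthesis 9 rose and none fell, with a median of 0.37. Scd1, the desaturase that makes oleate, rose from 11.56 and 11.67 to 12.53 and 12.64 (1.97-fold, adjusted p = 0.000478). Acss2, which makes acetyl-CoA from acetate, rose from 9.07 and 9.12 to 11.17 and 11.27, a 4.36-fold change that placed it among the 15 largest rises of genes detected on all 4 arrays.

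Stress and redox genes moved in both directions. Of 28 ATF4 and amino acid genes 6 fell and 1 rose, beside 13.2% and 14.7% of all 6947 genes. Stc2, stanniocalcin 2, fell from 7.37 and 7.48 to 5.40 and 5.84, with 1 PLX4720 array detected (3.49-fold, adjusted p = 0.000123). Slc7a11, the cystine transporter, was detected on the DMSO arrays only and was at least 1.31-fold lower. It stands in this list and in the next, where it was the fall. Of 24 NRF2 and glutathione genes 9 rose and 1 fell, with a median of 0.36. Ephx1, microsomal epoxide hydrolase, rose from 10.51 and 10.33 to 11.91 and 11.93 (2.83-fold, adjusted p = 5.12e-05), and the glutathione transferase Gstm2 rose 2.65-fold. Gstm1 is uncertain, since its used probe changed by 1.03 and a second probe, detected on all 4 arrays, by -0.19, and with the mean of both the call was lost (adjusted p = 0.141). The transferrin receptor Tfrc, which brings iron in, fell 2.12-fold (adjusted p = 0.00431). The iron exporter Slc40a1 was instead detected on the PLX4720 arrays only, at 6.27 and 7.74, and was at least 2.70-fold higher. Its change of 2.21 was 2.94 without replicate 1 of co-culture PLX4720 and 1.47 without replicate 2.

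Genes of apoptosis moved one by one and not as a group. Bcl2l11, which encodes BIM, a BH3-only protein that promotes cell death, rose from 7.26 and 7.33 to 8.51 and 8.46 (2.28-fold, adjusted p = 0.00187). Its used probe changed by 1.19, and another, detected on 1 DMSO array and 2 PLX4720 arrays, by 0.47. Bmf, another BH3-only gene, was below detection in DMSO and at 6.82 and 7.47 in PLX4720, at least 2.98-fold higher. Pmaip1, which encodes NOXA, fell from 7.14 and 7.01 to 6.51 and 6.41 (1.53-fold, adjusted p = 0.0107), and lost the call without replicate 1 of co-culture DMSO (0.0901) or replicate 2 of co-culture PLX4720 (0.0535). The death receptor Fas, detected in PLX4720 only, was at least 3.08-fold higher by its used probe, whose change of 2.56 stood against 1.15 for a second one. Over 13 detected BCL2 family genes 3 rose and 2 fell, beside 14.7% and 13.2% of all 6947 genes, and the median was -0.03.

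Interferon-stimulated and antigen presentation genes rose or were not called. Of 19 interferon-stimulated genes 14 rose and none fell, with a median of 0.71. Of the 14 detected on all 4 arrays 9 rose, with a median of 0.59. Gbp2, a guanylate-binding protein induced by interferons, rose from 6.23 and 6.07 to 8.68 and 8.83 (6.10-fold, change 2.61 ± 0.15, adjusted p = 6.05e-06). Usp18, Ddx58 and Igtp were detected in PLX4720 only and were at least 1.28-fold, 1.19-fold and 1.21-fold higher. Of 10 genes of MHC class I and antigen presentation 5 rose and none fell. Tap2, a subunit of the peptide transporter of the endoplasmic reticulum, was at 5.62 and 5.82 in DMSO, with 1 array detected, and at 6.71 and 7.39 in PLX4720 (2.52-fold, adjusted p = 0.00138).

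Cytokine signalling genes were divided. Il6st, the shared gp130 receptor chain of the IL-6 family, rose from 7.98 and 7.73 to 9.44 and 9.34 (2.90-fold, adjusted p = 0.000478). Stat3, the transcription factor below it, rose 2.21-fold by its used probe, a change of 1.14. Other Stat3 probes, detected on all 4 arrays, changed by 0.44 and 1.23. Socs3, the feedback inhibitor of Stat3, rose from 8.89 on both DMSO arrays to 10.02 and 9.95 (2.14-fold, adjusted p = 0.000803). Pim3, a kinase gene of the same list, fell 1.88-fold, and over the list 4 of 13 genes rose and 4 fell. Of 16 NF-kB targets and chemokines 7 rose and 3 fell. The chemokines Ccl7 and Cxcl1 were detected in PLX4720 only. Ccl7 was at least 2.43-fold higher and Cxcl1 at least 1.47-fold. The cytokine Il11 fell from 6.99 and 6.90 to 5.75 and 5.23, with 1 PLX4720 array detected (2.74-fold, adjusted p = 0.000493). Lgals9, or galectin 9, rose 5.27-fold (adjusted p = 8.85e-06).

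Contractile genes rose in 10 of 11 cases, with none lower and a median of 0.83. Acta2, the smooth muscle actin that marks myofibroblasts, was at 6.74 and 6.69 in DMSO and at 12.80 and 12.90 in PLX4720. This rise of 70.2-fold (change 6.13 ± 0.34, adjusted p = 5.47e-06) was the largest among genes detected on all 4 co-culture arrays. Its size depended on the probe, as 3 other probes of Acta2 changed by 4.60, 5.71 and 3.84, with 0, 0 and 1 of the 2 DMSO arrays detected. Tpm1, a tropomyosin of actin filaments, rose from 13.57 and 13.54 to 14.65 and 14.56 (2.07-fold, adjusted p = 0.000541). Csrp1, a LIM domain protein of smooth muscle, rose 3.02-fold and Palld, which encodes the actin-binding palladin, 4.57-fold. The gene for Srf itself rose 1.88-fold (adjusted p = 0.0147), a call that was lost without any one of the 4 co-culture arrays (0.065 to 0.0746).

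Matrix and matricellular genes were among the largest changes in both directions. Ccn5, a matricellular protein of the CCN family, rose from 7.62 and 7.59 to 11.46 and 11.71 (15.8-fold, change 3.98 ± 0.15, adjusted p = 4.08e-07). Tgm2, the transglutaminase that crosslinks matrix proteins, rose from 6.75 and 6.74 to 10.85 and 11.15 (19.1-fold, change 4.25 ± 0.15, adjusted p = 3.5e-07). Ogn, which encodes the small proteoglycan osteoglycin, was below detection in DMSO and at 10.31 and 10.82 in PLX4720, at least 31.9-fold higher by its used probe. The other probes of Ogn changed by 0.32 and 0.40 and were not detected on any co-culture array. By their used probes, Ccn5, Tgm2 and Ogn were above 10 on both PLX4720 arrays. Spon2 rose 10.4-fold, Tgfbi, an adhesion protein induced by TGF-beta, 4.80-fold and the metalloproteinase inhibitor Timp3 4.26-fold. In the opposite direction, Igfbp3, a carrier of insulin-like growth factors, fell from 10.20 and 10.27 to 5.92 and 5.77. Its fall of 21.0-fold (change -4.39 ± 0.21, adjusted p = 1.97e-06) was the largest among genes detected on all 4 co-culture arrays. Timp1 fell from 13.69 and 13.81 to 12.37 and 12.25 (2.71-fold, adjusted p = 0.000373), opposite to Timp3. By list, 8 of 11 YAP-linked and matricellular genes rose and 1 fell, with a median of 0.94. Of 11 collagen chains 8 rose and 2 fell (median 0.69), and of 15 secreted matrix and IGF binding genes 9 rose and 1 fell (median 0.73). Among genes detected on all 4 arrays, 7 of 10 YAP-linked and matricellular genes rose and 1 fell (median 0.925). For collagen chains 4 of 6 such genes rose and 1 fell (median 0.44). For secreted matrix and IGF binding genes 7 of 13 rose and 1 fell (median 0.45).

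**Figure D3:**
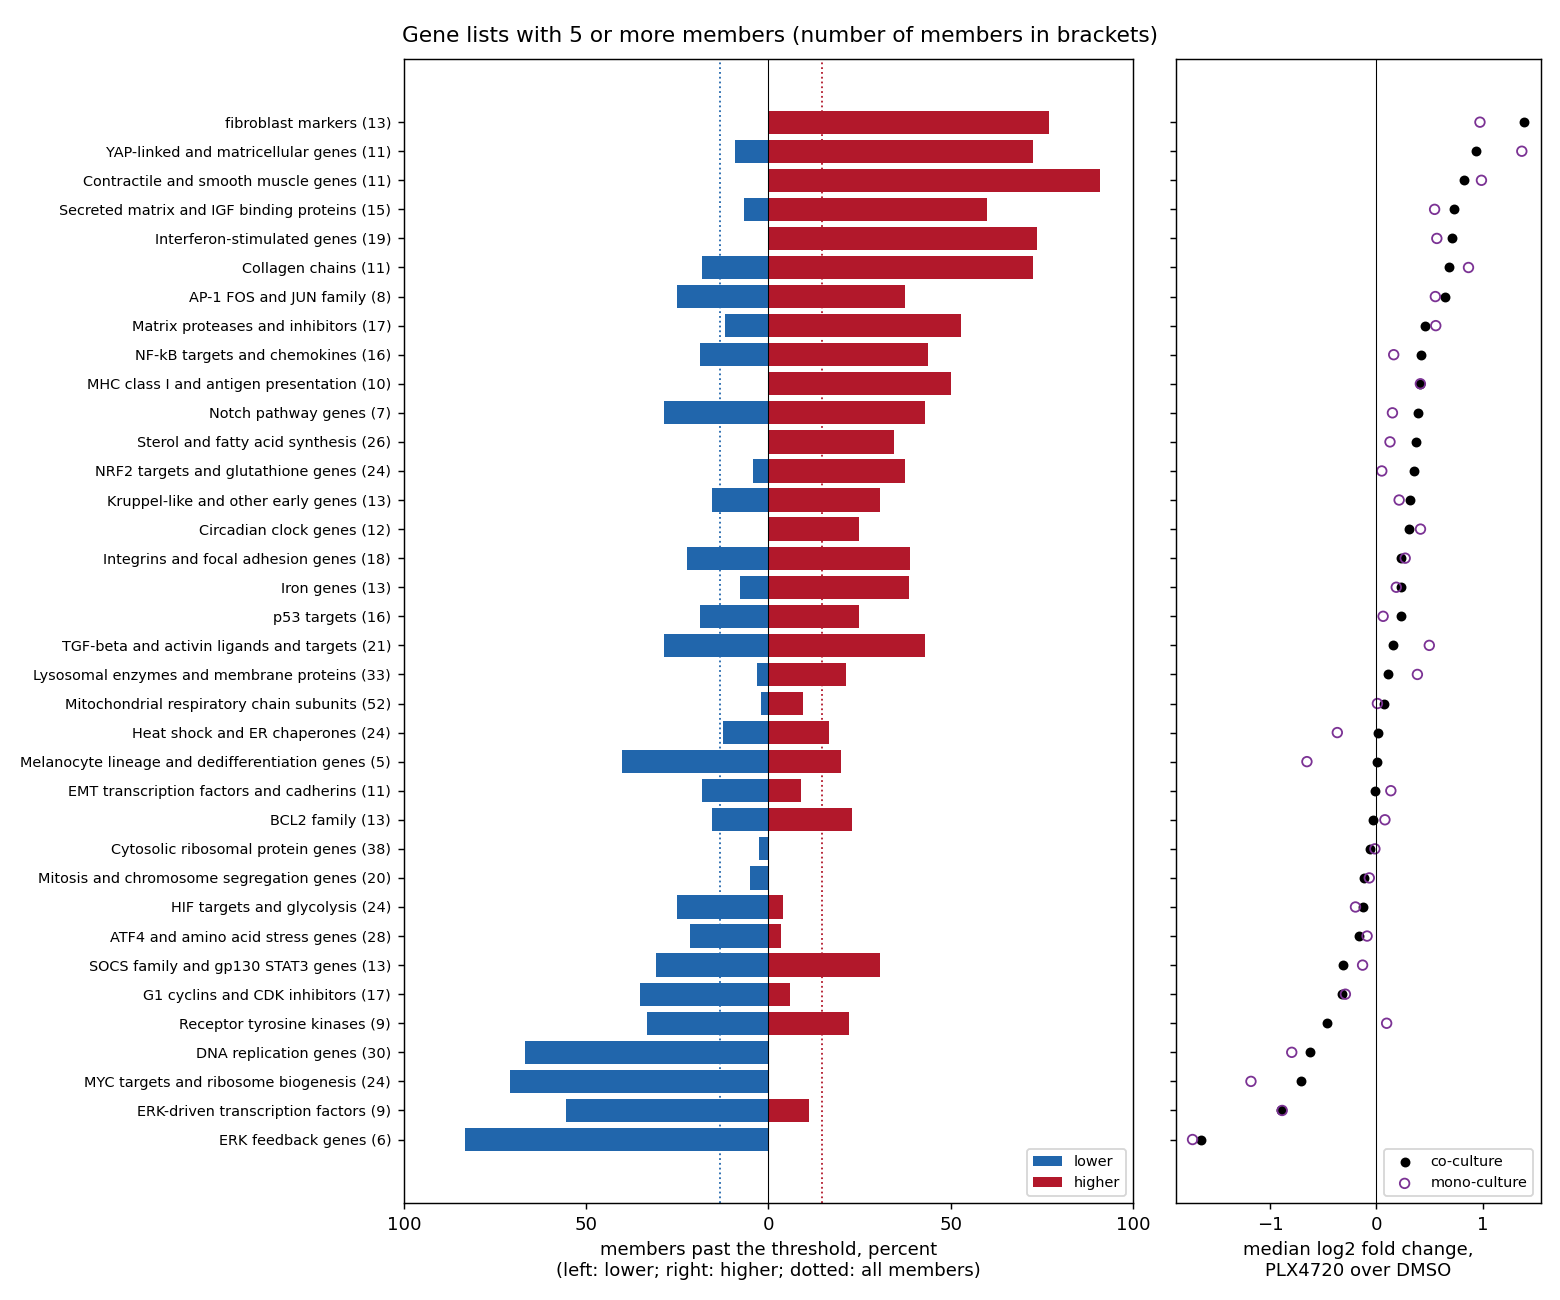
Share of detected members of each pathway and cell type list (5 or more members, number in brackets) that rose (red, right) or fell (blue, left) in co-culture, in percent, with dotted lines at the shares of all 6947 genes, 14.7% and 13.2%. The right panel gives the median log2 fold change in co-culture (filled) and in mono-culture (open). Fibroblast markers have the highest co-culture median (1.39), and contractile, matrix and interferon lists also lie at the high end. At the low end lie ERK feedback genes, ERK-driven transcription factors, ribosome biogenesis and DNA replication lists.

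Many of these matrix and contractile genes also mark fibroblasts, the other cell type of the culture. Of 20 fibroblast markers 13 were detected, 10 rose and none fell, with a median of 1.39. Their summed linear intensity over all 20 was 4131 and 4528 on the DMSO arrays and 14018 and 14918 on the PLX4720 arrays. Much of this was Acta2, and without it the sum was 4025 and 4425 in DMSO and 6895 and 7298 in PLX4720. Of the 8 markers detected on all 4 arrays 5 rose, with a median of 0.86. The brightest probes of Dcn, Lum, Thy1, Fap, Postn, Dpt and Col6a2 were detected on none of the 8 arrays, and Pdgfra, at 7.71 and 7.75 against 7.92 and 7.94, did not pass (adjusted p = 0.392). In mono-culture, where no fibroblasts were added, the same list also had 10 genes higher and none lower, with a median of 0.98, and its sum was 4893 and 5149 in DMSO and 19582 and 13059 in PLX4720, or 4442 and 4478 against 6578 and 7641 without Acta2. The part of remaining fibroblasts in the co-culture values was not tested beyond these values, and in bulk samples fewer cells of a type and less RNA per cell cannot be told apart. Of other cell types, 1 of 13 leukocyte markers with a probe, 2 of 9 endothelial markers and 1 of 9 keratinocyte markers were detected. None of these rose, and Cd14 of the first list and Flt1 of the second fell 1.60-fold and 1.89-fold. Cd14 lost its call without replicate 2 of co-culture DMSO (adjusted p = 0.0863).

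The labelled lineage was checked in the same way. Of 25 melanocyte lineage and dedifferentiation genes with a probe 5 were detected. Among these 1 rose and 2 fell, beside 14.7% and 13.2% of all 6947 genes, and the median was 0.004. The rise was Aqp1, at 1.54-fold (adjusted p = 0.00428). The used probes of Mitf, the master regulator of the lineage, and of the pigment genes Tyr, Tyrp1, Dct, Pmel and Mlana were not detected on any array of the series, and the markers of pigment cells were thus absent at this sensitivity. Sox2, a stem cell factor, fell from 9.07 and 9.13 to 7.47 and 7.08 (3.54-fold, adjusted p = 7.46e-05). Sox9, a neural crest factor, was detected on the DMSO arrays only and was at least 2.87-fold lower.

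Receptors, adhesion and differentiation genes completed the extremes. Pdgfrb, the beta receptor for platelet-derived growth factor, rose from 6.33 and 5.84 to a little above 8 on both PLX4720 arrays (3.85-fold, adjusted p = 0.000541). Mertk, a receptor of the TAM family that engulfing cells use, was detected on the DMSO arrays only, at 7.93 and 7.79, and was at least 4.86-fold lower. Over 9 receptor tyrosine kinases 2 rose and 3 fell, and the list's median of -0.47 turned to 0.20 when only genes detected on all 8 arrays were kept. Snai1, a repressor of E-cadherin, rose 2.40-fold (adjusted p = 0.000205), whereas the transcription factor Twist2 fell 1.83-fold (adjusted p = 0.00145). Cdh6, or K-cadherin, fell from 8.39 and 8.02 to 5.38 and 5.83, with 1 PLX4720 array detected (6.07-fold, adjusted p = 7.82e-05). Over the 11 detected genes of their list 1 rose and 2 fell, beside 14.7% and 13.2% of all 6947 genes, with a median of -0.02. Id3, a target of BMP signalling, rose 3.84-fold and Bmp4, a BMP ligand, 2.35-fold. Both belong, with Tgfbi, to a list of TGF-beta and activin ligands and targets that was divided. Of its 21 detected genes 9 rose and 6 fell, with a median of 0.16. Of the 19 detected on all 4 arrays 8 rose and 6 fell, with a median of -0.07. Among the falls of over 9-fold were Sema7a, a membrane-anchored semaphorin, from 11.24 and 11.47 to 7.79 and 7.98 (11.1-fold), Upp1, a uridine phosphorylase, from 11.07 and 11.14 to 7.82 and 7.84 (9.73-fold), and Esm1, or endocan, from 12.76 and 12.72 to 9.61 and 9.50 (9.09-fold). The chemokine receptor Cxcr4 was lost from detection and was at least 3.11-fold lower. The clock output gene Dbp rose from 9.22 and 9.19 to 10.80 and 11.09 (3.34-fold, adjusted p = 0.000183).

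The change in co-culture was then set beside that in mono-culture, which rests on 4 other arrays. Across the 6947 genes, which are not independent replicates and were normalised together, the 2 changes correlated with Pearson's r of 0.80 and Spearman's rho of 0.72. In mono-culture 2727 of these genes passed, and 1401 passed in both cultures in the same direction, 741 higher and 660 lower. This is 72.4% of the co-culture calls and 51.4% of the mono-culture calls. For 93.4% of the co-culture calls the mono-culture change had the same sign, against 75.8% of all 6947 genes, and 21 genes passed in opposite directions. A gene that passed in one culture only is not thereby shown to differ between them.

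The difference of the 2 changes was therefore tested in the same fit. It was called for 9 of 7357 genes (0.122%), 8 of them detected in co-culture, and 1149 of the 6947 genes had an unadjusted p under 0.05. The count was unstable, with 122 genes after background correction with an offset of 50, 52 with the replicate block and 2 without replicate 1 of co-culture DMSO. Fos was below detection on all 4 DMSO arrays and stood at 7.05 on both mono-culture PLX4720 arrays, against 10.36 and 9.95 in co-culture. The difference of the 2 changes was called (adjusted p = 0.00258), but its size is measured from background values. Ulk4, a gene for a kinase-like protein, was at 8.05 and 7.76 in co-culture DMSO and at 6.69 and 6.65 in co-culture PLX4720. In mono-culture it went from 6.90 and 6.71 to 7.80 and 7.82. The order was reversed, with a difference of -2.25 ± 0.20 (adjusted p = 0.00285), and the level in co-culture with drug was near that of mono-culture without it. Dipk1a behaved alike, with 8.64 and 8.46 falling to 6.76 and 7.32 in co-culture and 7.23 and 7.92 rising to 8.52 and 8.58 in mono-culture. Aqp1, the water channel aquaporin 1, had the opposite pattern, with 10.15 and 10.20 rising to 10.77 and 10.83 in co-culture and 10.64 and 10.68 falling to 10.04 and 9.97 in mono-culture. Under the alternatives that could test them, the differences of Fos (17 of 17) and Ulk4 (18 of 18) were called each time, and those of Dipk1a and Aqp1 12 of 18 times each.

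**Figure D4:**
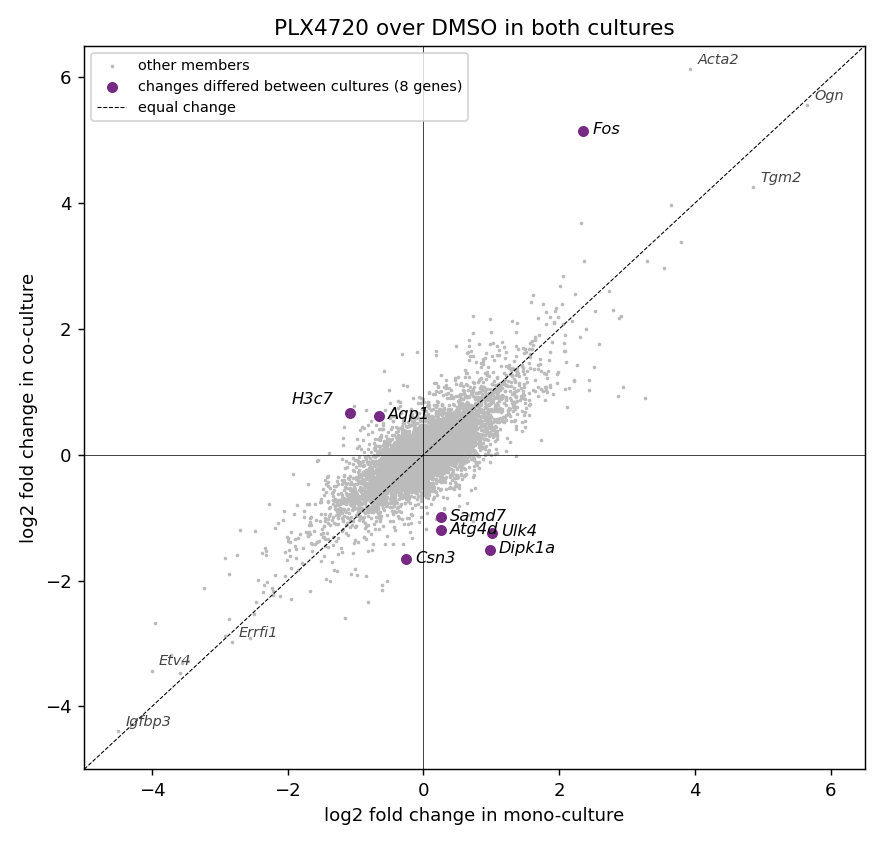
Log2 fold change of PLX4720 over DMSO in co-culture (vertical) against mono-culture (horizontal) for the 6947 detected genes, with a dashed line of equal change. The 8 genes whose changes differed between the cultures are purple, and Fos lies far above the line while Ulk4, Dipk1a, H3c7 and Aqp1 lie in the quadrants of opposite change, as do Atg4d and Samd7, whose mono-culture changes did not pass.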

How the data were processed

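The series holds total RNA of 5555-mEGFP cells on 8 Illumina mouse BeadChips. Arrays were grouped by their titles into mono-culture and co-culture, each with DMSO or PLX4720 (2 arrays per group). The authors deposited raw mean bead intensity values, each with a detection p-value, and a second table whose log2 values match these intensities after quantile normalization, with no background subtracted (largest difference 4.9978e-09). The deposited detection p-values were used as given. Their processing notes name lumi, with no version. All columns were assigned to an array. With limma 3.58.1 in R 4.3.3, intensities were background corrected, quantile normalized and log2 transformed (neqc, offset 16, negative controls inferred from the detection p). Probes were kept when at least 2 of 8 arrays had a detection p below 0.01 (10660 of 25697), and of 1953 genes with several kept probes the brightest probe was used, which left 7357 genes. Of all probes, 23978 had 1 gene symbol, 1719 had none, and 23962 were matched to RefSeq. Group means were fitted on all 8 arrays with lmFit and eBayes (4 residual degrees of freedom, prior 5.49), p was adjusted over all 7357 genes by the method of Benjamini and Hochberg, and the threshold was 0.05. The script was tested on simulated data. The number of arrays limits the precision.

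Genes were named as follows: the 15 largest rises and falls that passed on genes detected on all 4 co-culture arrays, the 6 largest bounds each way, up to 4 genes per list, the genes of 1 further list carried over from earlier work on these data (14 detected, 6 higher and 4 lower) and genes called in the difference between cultures. Myc, Egr1, Spred1, Dusp7, Pdgfra, Srf and Zfp36 in its promoter were singled out after their values were seen. The 41 gene lists, the members and the tests were chosen with earlier results of these data known. Alternatives covered background, scaling, filter, probes, arrays in the fit, array weights, a replicate block, an ordinary t-test of each gene and the removal of each array. No background subtraction and the deposited log2 values are in effect the same values. Each still counts as a setting wherever settings are counted. For such data the study's methods name Student's t-test as the metric that ranks genes for gene set enrichment, not for calls on single genes. Nothing states that equal replicate numbers pair arrays, and their deviations correlated between groups with r from -0.0836 to 0.0899.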

Additional observations from a re-analysis of the deposited data

Results flagged for a closer look

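In 8 genes the change under PLX4720 differed between co-culture and mono-culture by the test of the difference itself (limma, adjusted p under 0.05). The differences, co-culture minus mono-culture on the log2 scale, were 2.80 for Fos, 1.76 for H3c7, 1.28 for Aqp1, -1.25 for Samd7, -1.40 for Csn3, -1.46 for Atg4d, -2.25 for Ulk4 and -2.48 for Dipk1a. Fos was below detection on all 4 DMSO arrays, so the size of its difference is measured from background values. Csn3 was detected in co-culture DMSO only, at 6.26 and 6.27, and its co-culture fall of 1.66 on the log2 scale stood against a mono-culture change of -0.26, at levels below detection. Atg4d and Samd7 were likewise detected on the co-culture DMSO arrays only and on no mono-culture array. These 3 genes entered only through the group where they were high, and their differences are measured from background values. Across the alternatives, Csn3 was called in 10 of 17, and Atg4d and Samd7 in 8 of 17 each. H3c7, a histone gene, rose by 0.67 in co-culture, a call that was lost without any one of the 4 co-culture arrays (adjusted p from 0.0571 to 0.151), and changed by -1.09 in mono-culture. Histone genes are similar in sequence, so the gene behind this probe is uncertain. Aqp1, Ulk4 and Dipk1a passed in both cultures in opposite directions. Groups of 2 arrays are too small for a test of deviating arrays.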

How the results depend on the processing

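Of 20 alternative settings, the count of genes higher in co-culture stayed within a factor of 1.5 of 1053, and that of genes lower within a factor of 1.5 of 934, apart from the following. Median scaling left 567 lower. The ordinary t-test of each gene over 4 arrays left 3 higher and 4 lower after Benjamini-Hochberg adjustment, and 981 and 969 at an unadjusted p under 0.05. With each array left out in turn, 543 to 1032 genes were higher and 440 to 914 lower. The difference between cultures (9 genes) was called for 95 genes without background subtraction and with the deposited log2 values, 122 with an offset of 50, 110 with median scaling, 28 when detected on all 8 arrays, 53 when p was adjusted over co-culture genes alone, 52 with the replicate block, and 2 to 35 with an array left out. The replicate block gave 1032 genes higher and 889 lower. Median scaling moved the median change of the detected genes to 0.09. With the mean of probes 3 of the 1934 calls in co-culture turned direction, and in the other settings none did. Among 183 named genes 176 passed, but most were named because they passed, so this count is no check on the calls. Of all 1934 calls in co-culture, 1702 were kept with the 4 co-culture arrays alone and 1528 with median scaling. Fewer were kept without any one co-culture array. Ier3 and Dusp7, not called, changed sign from -0.058 and -0.034 to 0.032 and 0.076 with median scaling, and ranged from -0.137 to 0.020 and from -0.193 to 0.124 with an array left out. Of 41 list medians, 32 kept their sign in every setting. Their size was less stable, as 36 moved in some setting by at least the spread of the list between replicate arrays. Without background subtraction the interferon list went from 0.71 to 0.34 and collagen chains from 0.69 to 0.41. The causes of these differences were not tested. Detected probes had a median signal of 3.26 to 3.89 times the background of their array, which limits what can be said of dim genes.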
